A study of Mus musculus with 12 samples.

Results

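The ABC (ATP-binding cassette) transporter family was examined in the livers of WT mice and of mice without a working gene for the selenium-recycling enzyme selenocysteine lyase (Scly KO). Its members were all genes of the count table whose symbol begins with Abca, Abcb, Abcc, Abcd, Abce, Abcf or Abcg followed by a digit, which gave 50 of the 24795 genes. Of these, 39 had 10 or more counts in at least 3 libraries and are described here as the kept members. ABC proteins use the energy of ATP to move substrates across membranes. In the hepatocyte they secrete bile salts, phospholipid, cholesterol and conjugated drugs through the canalicular membrane into bile, return conjugates to blood through the basolateral membrane, and carry fatty acids into peroxisomes. Subfamilies E and F hold soluble proteins with the same ATP-binding domains, which act on ribosomes and move nothing across a membrane.

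Liver RNA of male mice was sequenced in 12 libraries, 3 for each of 4 groups. WT mice were of the C57BL/6N strain and were bred in house, and Scly KO mice were kept as a homozygous colony, so the genotypes were not stated to be littermates. From weaning, both genotypes ate a defined diet for at least 8 weeks, with 0.08 ppm (low, LS) or 0.25 ppm (adequate, MS) of selenium as sodium selenite. The groups were WT LS (libraries S1, S2 and S3), WT MS (S4, S5 and S6), KO LS (S10, S11 and S12) and KO MS (S7, S8 and S9).

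Total counts were between 4797067 and 8901293 in WT LS, 7561008 and 9291902 in WT MS, 10024908 and 11762165 in KO LS, and 7856891 and 9651901 in KO MS. Scly itself was between 73.1 and 105 CPM (counts per 1000000 counts) in the WT libraries and between 4.84 and 6.90 CPM in the Scly KO libraries. 3 libraries stood apart. The ribosomal RNA precursor Rn45s took 16.99% of the counts of S7 and 19.86% of those of S8, against 2.447% to 9.23% in the others. In S12 the 8 bile duct markers summed to 293 CPM, against 22.8 to 41.9 CPM in the other 11 libraries, and all 8 were highest there, while the 8 hepatocyte markers summed to 76217 CPM against 90501 to 131838 CPM. In whole liver, fewer cells of a type and less RNA per cell cannot be told apart. Each group has 3 libraries, and no label names the mouse behind each, so p-values here reflect variation from library to library, some of which may be technical.

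The kept members were spread unevenly over the subfamilies. Subfamily A (full transporters of lipids and sterols) kept 9 of 16 genes, B 9 of 10, C 8 of 10, D 4 of 4, E 1 of 1, F 3 of 3 and G 5 of 6. All 8 genes listed as canalicular and all 6 listed as basolateral were kept. Of the 11 genes that were not kept, Abca15, Abca16, Abcb5 and Abcc8 were at 0 counts in every library. Abca15 and Abca16 lie beside Abca14, another gene that was not kept, on chromosome 7 between 120203964 and 120544813 (mm10). Just outside the threshold was Abcc12, which had 50 counts in S12 and at most 4 counts in any other library. The members just inside it were Abcb1b and Abcb9, each with 10 counts or more in 4 libraries. Those were S2, S4 and S5 of WT and S10 of Scly KO for Abcb9. For Abcb1b they were S2, S3 and S5 of WT and S12 of Scly KO. Both genes were therefore kept mainly through WT, and lower values in Scly KO are not independent of that filter.

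The members that the results turn on share sequence and neighbourhood. Abcb1a, Abcb1b and Abcb4 follow each other on the plus strand of chromosome 5 between 8567091 and 8959226 (mm10). The former pair encode drug-exporting P-glycoproteins, and Abcb4 encodes the phosphatidylcholine floppase of bile. The coding sequences of Abcb1a and Abcb1b were identical at 88.1% of 3819 aligned bases, and those of Abcb1a and Abcb4 at 75.7% of 3809. Of all stretches of 50 bases in the Abcb1a transcript, 15.5% also occur in that of Abcb1b and 2.57% in that of Abcb4. Reads that lie only within identical stretches cannot be assigned to 1 gene by sequence. The authors' counting divided such reads by estimation: 11 of the 12 values of Abcb1a and 11 of the 12 of Abcb1b were not whole numbers. The longest identical stretches are shown because they are what these genes share in the counting. They were read from the GENCODE transcripts of the same build and are printed 5′ to 3′. The longer run has 338 bases, from 1357 to 1694 of the Abcb1a coding sequence and from 1366 to 1703 of that of Abcb1b. Its bases 1479 to 1678 in Abcb1a are printed, with the ABC signature motif of an ATP-binding domain in capitals. The other covers bases 3139 to 3248 in both Abcb1a and Abcb4, with the Walker A motif, which binds ATP, in capitals.
Abcb1a and Abcb1b: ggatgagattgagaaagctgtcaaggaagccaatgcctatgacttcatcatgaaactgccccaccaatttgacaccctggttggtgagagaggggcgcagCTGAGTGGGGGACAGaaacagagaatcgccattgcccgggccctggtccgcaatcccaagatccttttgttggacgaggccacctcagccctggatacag
Abcb1a and Abcb4: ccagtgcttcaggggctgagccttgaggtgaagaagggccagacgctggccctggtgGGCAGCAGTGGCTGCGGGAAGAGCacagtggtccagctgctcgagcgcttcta

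Levels of different genes were compared as CPM per kb of the longest transcript. Abcd3, which carries branched-chain fatty acids and bile acid precursors into peroxisomes, had the highest mean level at 194 CPM per kb (75.2 to 251 over the 12 libraries). Abcb11, the bile salt export pump, followed at 97.9 CPM per kb (65.2 to 117), so these ranges overlapped. Abca6 at 62.6, the bilirubin glucuronide exporter Abcc2 at 56.1 and Abcb4 at 53.4 CPM per kb came next, and their ranges also overlapped. Together these 5 genes held between 53.4% and 60.3% of the summed level of the 39 kept members in every library.

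Abcg5 and Abcg8, whose products pair to pump sterols into bile, had mean levels of 45.9 and 30.6 CPM per kb. The cholesterol exporter Abca1 was at 27.4 CPM per kb and the ribosome recycling factor Abce1 at 22.5. At the other end, Abcb1b was at 0.239 and the lysosomal peptide transporter Abcb9 at 0.227 CPM per kb. By place in the cell, canalicular members held between 33.7% and 41.6% of the summed level and peroxisomal members between 14.5% and 32.4%. Basolateral members held between 6.01% and 10%.

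**Figure D1:**
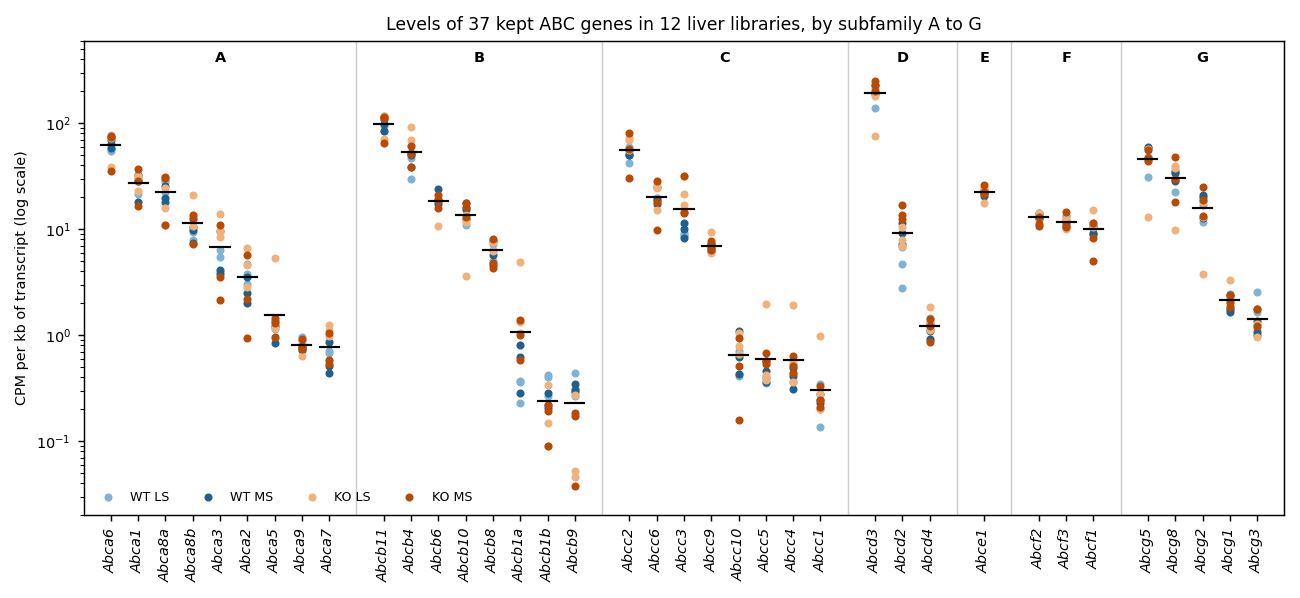
Level of 37 of the 39 kept ABC genes in CPM per kb of its longest transcript, on a log axis, with 1 point per library coloured by group and a bar at the mean of the 12 libraries. Subfamily D is led by Abcd3 at a mean of 194 CPM per kb, and the members of subfamily B run from 97.9 (Abcb11) to 0.227 (Abcb9).

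On the low selenium diet, more members were higher than lower in Scly KO, but none passed the adjusted threshold in the edgeR fit over all 12009 tested genes. With an unadjusted p under 0.05, 7 members were higher in KO LS than in WT LS and 1 was lower, against a background of 5.78% of all genes higher and 5.47% lower. Those that were higher were the basolateral conjugate exporters Abcc3 and Abcc5, the canalicular Abcb1a and Abcb4, the peroxisomal Abcd2, and Abca5 and Abca7, which belong to the lipid-transporting subfamily A. Abcb9, kept by the count filter mainly through WT libraries, was the one that was lower. The smallest adjusted p of any member was 0.342 (edgeR, Benjamini-Hochberg), and a single gene of the 12009, Scly, passed 0.05 (0.00833% lower, 0% higher).

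The median log2 fold change of the 39 members was 0.17, beside 0.06 for all tested genes, and 25 of the 39 were above 0, beside 54.2% of all genes. After correction of each library for transcript length and GC content, the median of the members was -0.06. For 6 members, Abca3, Abca7, Abcb1a, Abcb4, Abcc3 and Abcd2, every KO LS library lay above every WT LS library, while 13.2% of all genes were separated in that direction. For 0 members did every KO LS library lie below, against 11.8% of all genes. DESeq2, run as an alternative, called 2 members at an adjusted p under 0.05, Abcb1a and Abcc3, and 0.391% of all genes.

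On the adequate diet, Abcc3 was the one member with an unadjusted p under 0.05 (edgeR), and the background was 0.516% of genes higher and 0.408% lower. No member reached an adjusted p below 0.999 there, and DESeq2 called 0 members and 0.025% of all genes. Abcc3 and Abcd2 were separated with KO MS above WT MS (2.23% of all genes) and Abcb9 with KO MS below (2.49%). The median log2 fold change of the members was 0.09, beside 0.03 for all genes, and it was -0.06 without S9.

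Averaged over both diets, 5 members were higher in Scly KO and 1 was lower at an unadjusted p under 0.05 in edgeR, against 2.46% of all genes higher and 1.28% lower. They were Abcc3, Abcb1a, Abcd2, Abcb4 and Abca7, with Abcb9, kept mainly through WT libraries, lower. Abcc3 was the single member for which all 6 KO libraries lay above all 6 WT libraries, a separation that 0.108% of all genes had, while 0.0833% had the reverse. DESeq2 again called Abcb1a and Abcc3, with 0.225% of all genes called. The comparisons on each diet share no library. 16 members were above 0 on both diets, 5 were below 0 on both and 18 had opposite signs, so that 53.8% had the same sign, beside 39.5% of all tested genes. The fold change was larger in absolute size on low selenium for 82.1% of the members and 70.8% of all genes.

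**Figure D2:**
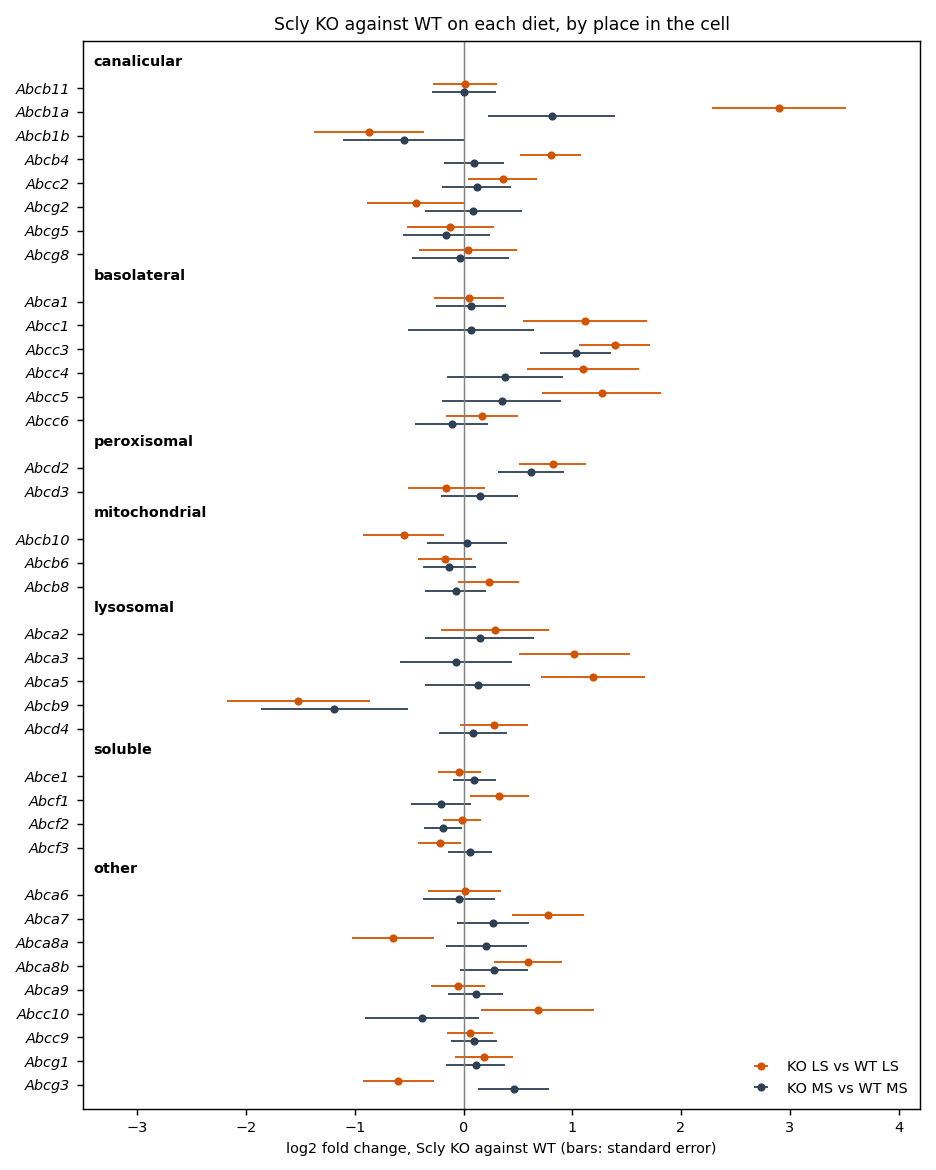
Log2 fold change of Scly KO against WT for 37 of the 39 kept members, on the low (orange) and the adequate (dark) selenium diet, with bars for the standard error from edgeR, grouped by place in the cell. Abcb1a has the highest value on low selenium (2.90), Abcc3 is at 1.39 and 1.03, and Abcb9 has the lowest values, -1.52 and -1.19.

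Abcc3, which sends glucuronides and bile acids from the hepatocyte back to blood, was the member with the clearest separation of the genotypes. Its levels were 46.2, 43.6 and 44.2 CPM in WT LS (S1 to S3) and 56.7, 41.7 and 50.2 CPM in WT MS (S4 to S6). They were 108, 158 and 84.8 CPM in KO LS (S10 to S12) and 72.7, 70.9 and 160 CPM in KO MS (S7 to S9). The lowest KO library, S8, was above the highest WT library, S4, and S11 and S9 were far above the other KO libraries of their groups. The difference was 1.39 ± 0.328 (log2 ± SE) on low selenium, with an unadjusted p of 0.000939 and an adjusted p of 0.342 in edgeR. On adequate selenium it was 1.03 ± 0.325 (unadjusted p = 0.00716, adjusted p = 0.999, edgeR), and averaged over the diets it was 1.21 ± 0.231 (unadjusted p = 0.00015, adjusted p = 0.257, edgeR). DESeq2 gave an adjusted p of 0.0212 on low selenium, 1 on adequate selenium and 0.000963 for the average.

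The values of Abcc3 depended on single libraries in the adequate diet. Without S9 the difference there was 0.54 with an unadjusted p of 0.0585 in edgeR, and without S7 and S8 it was 1.68. Leaving out S7, S8 and S12, an alternative added after seeing the data, gave an average difference of 1.62 with an adjusted p of 0.00315 in edgeR. The low and adequate selenium values of Abcc3 overlapped in both genotypes, and the differences were -0.15 ± 0.324 in WT and 0.21 ± 0.32 in Scly KO. The genotype by diet interaction was 0.36 ± 0.455 (95% interval -0.55 to 1.27). In the limma-voom alternative, which weights the libraries by quality, the adjusted p of Abcc3 was 0.003 for diet in Scly KO and 0.0345 for the interaction, where it called 49.9% and 17.3% of all genes. Relative to Abcc2, its counterpart on the canalicular side, the ratio of Abcc3 to Abcc2 in CPM was between 0.091 and 0.143 in the 6 WT libraries and between 0.154 and 0.295 in the 6 KO libraries. These ranges did not overlap.

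The other basolateral members gave less even values. On low selenium all 6 had a log2 fold change above 0, with a median of 1.11, and on adequate selenium 5 of 6 did, with a median of 0.21. Abcc5, an exporter of organic anions and cyclic nucleotides, was at 2.05, 2.30 and 2.35 CPM in WT LS and at 2.44, 2.21 and 11.4 CPM in KO LS. S12 alone was high, and S10 and S11 lay within or just above the range of WT LS. Its fold change of 1.27 ± 0.547 on low selenium became 0.02 without S12.

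The same library carried the values of 2 further basolateral genes. Abcc4, which exports bile acids and nucleotides, was at 2.08, 3.27 and 11 CPM in KO LS, and Abcc1, an exporter of glutathione conjugates, was at 1.90, 1.35 and 6.68 CPM there. In each, S12 was the highest of all 12 libraries. Their fold changes on low selenium were 1.10 ± 0.517 and 1.12 ± 0.569, and the groups overlapped. In S12 all 8 bile duct markers were also highest, as given above, and their part in these values was not tested.

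Abca1, which loads cholesterol onto apolipoprotein A-I, and Abcc6, the exporter needed to prevent ectopic mineralization, were far higher in level. Abca1 averaged 283 ± 53.9 CPM (SD, n = 3) in WT LS, 269 ± 73.8 in WT MS, 292 ± 49.1 in KO LS and 282 ± 106 in KO MS. Abcc6 averaged 96.6 ± 1.29, 101 ± 19.7, 109 ± 29.4 and 93.6 ± 46.0 CPM in the same order. All groups overlapped for both genes, and the 95% intervals of the log2 fold change on low selenium ran from -0.59 to 0.69 for Abca1 and from -0.50 to 0.84 for Abcc6.

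**Figure D3:**
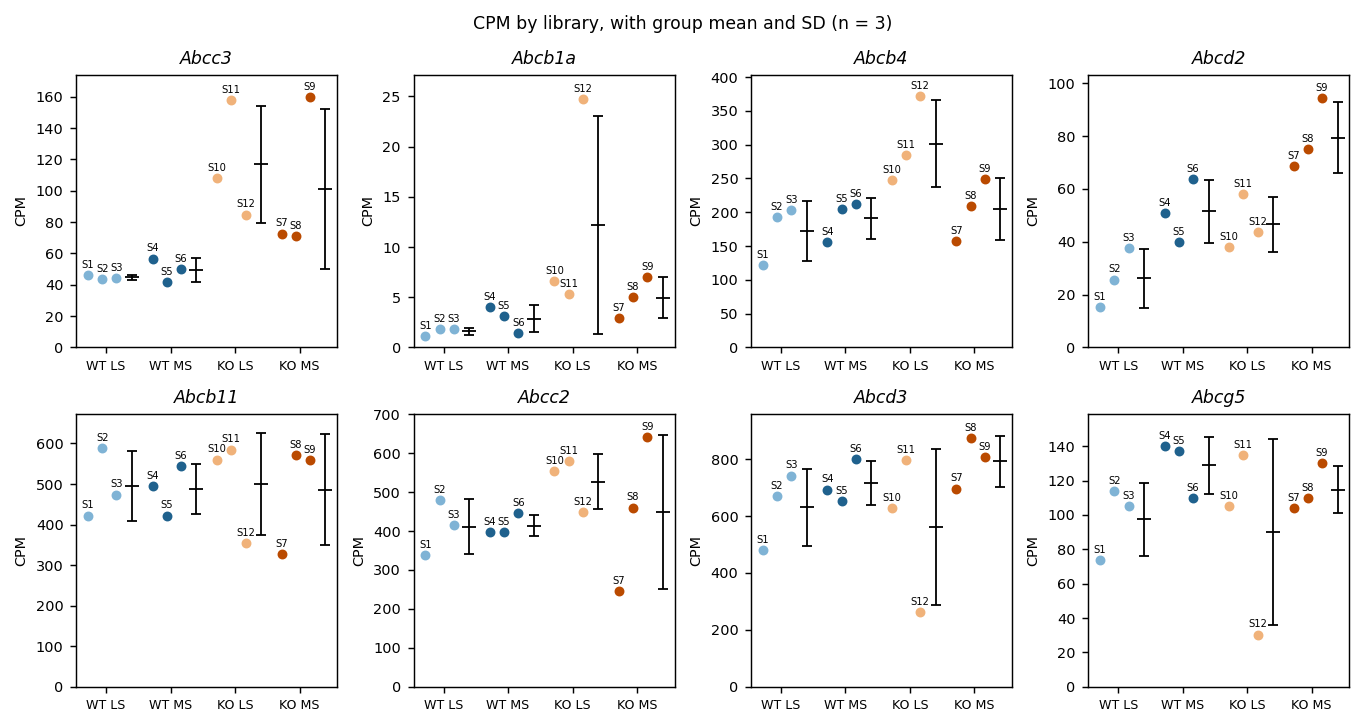
CPM of 8 members in each library (points, labelled S1 to S12) by group, with the group mean and SD beside them (n = 3). All 6 Scly KO libraries lie above all 6 WT libraries for Abcc3, S12 is the highest library for Abcb1a and Abcb4, and S12 is the lowest for Abcd3 and Abcg5.

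Among the canalicular members, Abcb1a and Abcb4 stood out on low selenium, and the median log2 fold change of the 8 genes was 0.03. Abcb1a, a P-glycoprotein, was at 1.14, 1.84 and 1.80 CPM in WT LS and at 4.03, 3.13 and 1.42 CPM in WT MS. It was at 6.6, 5.29 and 24.7 CPM in KO LS and at 2.90, 5.02 and 7 CPM in KO MS. Every KO LS library was above every WT LS library, S12 lay far above the rest, and the groups overlapped on adequate selenium. These CPM rest on few counts, between 4.89 and 16 in the WT LS libraries and 73.4, 54.6 and 443 in S10, S11 and S12.

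The difference in Abcb1a was 2.90 ± 0.62 on low selenium, with an unadjusted p of 0.000416 and an adjusted p of 0.342 in edgeR and an adjusted p of 0.00326 in DESeq2. Without S12 it was 1.82 (unadjusted p = 0.00161, adjusted p = 0.549, edgeR). On adequate selenium it was 0.81 ± 0.584, with a 95% interval from -0.36 to 1.98. The genotype by diet interaction was 2.09 ± 0.847 with an unadjusted p of 0.0281 and an adjusted p of 0.65 in edgeR, and without S12 it was 1.01. In the interaction, 1 member was higher and 1 lower at an unadjusted p under 0.05, against 2.1% and 4.63% of all genes. Low against adequate selenium in Scly KO gave 1.29 ± 0.55 for Abcb1a, which fell to 0.23 without S12 and was -0.24 without S7, S8 and S12. In the study's own qPCR of male livers, the genotype by diet interaction of Abcb1a had the opposite sign.

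Abcb1b did not follow its neighbour. It was at 1.14, 1.73 and 1.80 CPM in WT LS and at 0.633, 0.385 and 1.45 CPM in KO LS, so the groups overlapped and the log2 fold change was -0.87 ± 0.503. The ratio of Abcb1a to Abcb1b was between 1 and 1.07 in WT LS and between 10.4 and 17 in KO LS. It was between 1.5 and 4.57 in WT MS and between 3.5 and 18 in KO MS, so the genotypes overlapped on adequate selenium. Because the counting divided shared reads between these genes, their sum is the firmer value. It was 2.28, 3.57 and 3.60 CPM in WT LS and 7.23, 5.68 and 26.1 CPM in KO LS, which did not overlap, and 4.91, 4.36 and 2.37 CPM in WT MS beside 3.73, 5.96 and 7.39 CPM in KO MS, which did.

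Abcb4 was at 122, 193 and 203 CPM in WT LS and at 248, 285 and 372 CPM in KO LS. It was at 156, 205 and 212 CPM in WT MS and at 157, 209 and 249 CPM in KO MS. The low selenium groups did not overlap, with S12 the highest of all libraries and S1 the lowest, and the adequate selenium groups overlapped. The log2 fold change was 0.80 ± 0.277 on low selenium (unadjusted p = 0.0123, adjusted p = 0.439, edgeR) and 0.10 ± 0.276 on adequate selenium. Without S12 the former was 0.60.

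The remaining canalicular members did not separate the genotypes on either diet. Abcb11 averaged 495 ± 85.4 CPM in WT LS, 487 ± 61.8 in WT MS, 500 ± 126 in KO LS and 486 ± 137 in KO MS (SD, n = 3). Its log2 fold change on low selenium was 0.01, with a 95% interval from -0.58 to 0.60. Abcc2 averaged 411 ± 70.7, 414 ± 27.9, 527 ± 69.7 and 449 ± 198 CPM in the same order, with 0.36 ± 0.315 on low selenium. Abcg2, an exporter of sulphate conjugates and urate, gave -0.44 ± 0.447 there and was at 21.4 CPM in S12, the lowest of the 12 libraries.

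Abcg5 was at 105, 135 and 30.3 CPM and Abcg8 at 146, 140 and 36.0 CPM in S10, S11 and S12. S12 was below all other libraries for both genes, and their other KO LS values lay among those of WT LS or above. The ratio of Abcg8 to Abcg5 stayed between 0.639 and 1.39 over the 12 libraries, with both extremes in Scly KO (S7 and S10). The log2 fold changes on low selenium were -0.12 ± 0.401 for Abcg5 and 0.04 ± 0.447 for Abcg8. The genes lie head to head on chromosome 17 and overlap between 84676302 and 84683011 in the annotation of the count table. The library kit keeps strand, but the strand setting of the counting is not given in the sources used here, so reads of the overlap may have been assigned to either gene.

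Promoter windows, from 250 bases before to 50 bases after the start of the RefSeq transcript (GRCm38.p6), were given for 29 of the 39 kept members. Those of Abcb1a (chr5:8566841-8567140) and Abcb4 (chr5:8893471-8893770), both on the plus strand, are shown because both genes were separated between KO LS and WT LS. That of Abcg8 (chr17:84682871-84683170, plus strand) is shown because it shares 209 bases with the window of Abcg5 on the other strand. The capitals in the windows of Abcb1a and Abcb4 are matches, on either strand, to 5 searched motifs: TGACNNNGC (the core of the antioxidant response element), AGGTCA and AGTTCA (core sites of nuclear receptors), CCAAT and TATAAA. In the Abcg8 window the capitals are the 209 bases shared with Abcg5.
Abcb1a: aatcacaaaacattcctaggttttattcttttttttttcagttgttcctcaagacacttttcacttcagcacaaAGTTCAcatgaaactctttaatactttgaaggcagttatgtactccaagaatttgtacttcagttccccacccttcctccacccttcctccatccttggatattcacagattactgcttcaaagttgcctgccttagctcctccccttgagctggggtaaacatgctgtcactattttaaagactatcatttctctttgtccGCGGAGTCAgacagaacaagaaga
Abcb4: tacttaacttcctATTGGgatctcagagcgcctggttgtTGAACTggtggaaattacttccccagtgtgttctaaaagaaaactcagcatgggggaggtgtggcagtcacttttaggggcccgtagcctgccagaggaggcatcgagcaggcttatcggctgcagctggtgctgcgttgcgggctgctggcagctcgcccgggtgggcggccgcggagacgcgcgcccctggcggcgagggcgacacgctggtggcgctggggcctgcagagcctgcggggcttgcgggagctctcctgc
Abcg8: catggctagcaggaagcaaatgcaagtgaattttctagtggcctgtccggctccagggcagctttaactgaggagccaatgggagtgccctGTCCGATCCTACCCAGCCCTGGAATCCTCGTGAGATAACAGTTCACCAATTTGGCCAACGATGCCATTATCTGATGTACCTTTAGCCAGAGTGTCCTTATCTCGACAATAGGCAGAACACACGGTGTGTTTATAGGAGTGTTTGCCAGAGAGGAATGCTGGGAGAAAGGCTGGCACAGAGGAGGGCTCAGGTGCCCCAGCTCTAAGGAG

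AGTTCA was found in the windows of 10 of the 29 members (34.5%) and in 14% of all 32851 windows. Abcb1a, Abcb4, Abcb11, Abca7, Abcg5 and Abcg8 were among the 10. The Abcg5 and Abcg8 matches are the same bases, in the stretch that their windows share. TGACNNNGC was found in 5 members (17.2%), Abca8b, Abcb1a, Abcc10, Abcc2 and Abcc4, and in 12.4% of all windows. AGGTCA was found in 17.2% of the members and 16.3% of all windows, CCAAT in 34.5% and 37.4%, and TATAAA in 17.2% and 13.6%. Members were counted by gene, with a match in any window of the gene, and the background by single window. These shares are therefore not of like units and give no measure of enrichment. A match is a string of letters in the window and was not tested as a binding site.

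Among the peroxisomal members, the libraries of Abcd2 were apart by genotype and by diet with no adjusted p under 0.05 in edgeR, and those of Abcd3 overlapped in both. Abcd2, which imports very long-chain and polyunsaturated fatty acids, was at 15.3, 25.7 and 37.5 CPM in WT LS and at 50.8, 39.9 and 63.7 CPM in WT MS. In Scly KO it was at 38.0, 58.1 and 43.6 CPM on low and at 68.6, 75.0 and 94.4 CPM on adequate selenium. The groups did not overlap in any of the 4 pairs that differ by genotype alone or by diet alone, although S3 in WT LS and S10 in KO LS nearly touched.

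The log2 fold change of Abcd2 for Scly KO against WT was 0.82 ± 0.309 on low selenium (unadjusted p = 0.0194, adjusted p = 0.439, edgeR) and 0.62 ± 0.305 on adequate selenium (unadjusted p = 0.0613, adjusted p = 0.999, edgeR). Low against adequate selenium gave -0.97 ± 0.311 in WT (unadjusted p = 0.00801, adjusted p = 1, edgeR) and -0.77 ± 0.305 in Scly KO (unadjusted p = 0.0254, adjusted p = 0.208, edgeR). Abcd2 was the only member with an unadjusted p under 0.05 for diet in WT, where 1.15% of all genes were lower and 1.14% higher on low selenium. Groups were separated with low selenium below in 6.48% of all genes in WT and 5.33% in Scly KO, and with low selenium above in 5.21% and 5.54%. The interaction was 0.20 ± 0.432, with a 95% interval from -0.67 to 1.06. Without S1, the shallowest library, the low selenium difference was 0.56.

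Abcd3 averaged 631 ± 134 CPM in WT LS, 716 ± 76.2 in WT MS, 563 ± 274 in KO LS and 793 ± 89.8 in KO MS (SD, n = 3). S12 was its lowest library, at 262 CPM, and the 95% interval on low selenium ran from -0.87 to 0.54.

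Low against adequate selenium in Scly KO gave 2 members higher (Abcb1a and Abca5) and 1 lower (Abcd2) at an unadjusted p under 0.05 in edgeR, against 9.24% and 12.7% of all genes. The median over the members was 0.21, beside 0.06 for all genes. It was 0.02 without S7, -0.07 without S7 and S8, and -0.09 with each library corrected for transcript length and GC content. In WT the median over the members was 0.02, beside 0.01.

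The lysosomal and endosomal members showed the lowest and some of the highest fold changes of the family on low selenium. Abcb9, a peptide transporter of lysosomes, was at 1.14, 1.61 and 0.970 CPM in WT LS, 1.26, 1.12 and 1.07 in WT MS, 0.994, 0.192 and 0.167 in KO LS and 0.138, 0.628 and 0.681 in KO MS. All KO libraries except S10 lay below all WT libraries, and no library held more than 14 counts. Abcb9 was kept by the count filter mainly through WT libraries, so its lower values in Scly KO are not independent evidence. Its log2 fold change was -1.52 ± 0.657 on low selenium and -1.36 ± 0.471 over both diets (unadjusted p = 0.0128, adjusted p = 1, edgeR). The former was -1.08 without S12 and -2.74 without S10.

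Abca5, which acts in lysosomal lipid handling, was at 7.74, 11.3 and 9.42 CPM in WT LS and at 9.67, 11.3 and 44.1 CPM in KO LS. S12 alone was high, and the fold change of 1.19 ± 0.48 became 0.11 without it. Abca3, known for loading surfactant lipids in the lung, was at 25.3, 35.7 and 40.9 CPM in WT LS and at 89.3, 55.1 and 62.6 CPM in KO LS. These groups did not overlap, the difference was 1.02 ± 0.514 (unadjusted p = 0.0686, adjusted p = 0.447, edgeR), and on adequate selenium it was -0.07 ± 0.511. Abca2, a lysosomal lipid transporter, and Abcd4, which helps cobalamin leave the lysosome, gave 0.29 ± 0.498 and 0.28 ± 0.31 on low selenium.

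Abca5 belongs to a run of 5 genes on chromosome 11 between 109933406 and 110337716 (mm10), with Abca6, Abca8a, Abca8b and Abca9. These neighbours did not move as a block. On low selenium Abca6 was at 0.01 ± 0.333, Abca8a at -0.65 ± 0.376, Abca8b at 0.59 ± 0.311 and Abca9 at -0.05 ± 0.25. In S12, Abca5 and Abca8b were above the other 11 libraries and Abca8a was below them.

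Of the other members of subfamily A, Abca7, which moves phospholipids, was at 4.55, 3.80 and 4.71 CPM in WT LS and at 8.32, 7.50 and 6.51 CPM in KO LS. The groups did not overlap, and the difference was 0.78 ± 0.33 (unadjusted p = 0.035, adjusted p = 0.439, edgeR). It was 0.29 after each library had been corrected for transcript length and GC content.

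No mitochondrial or soluble member had an unadjusted p under 0.05 (edgeR) for Scly KO against WT on either diet, a level that 11.2% of all genes passed on low and 0.924% on adequate selenium. With so few members, a count of 0 is near those shares. The mitochondrial Abcb10, which supports haem synthesis, was lowest in S12 at 15.6 CPM, beside 58.5 and 50 CPM in S10 and S11. The 4 soluble members, the ribosome recycling factor Abce1, the translation factor Abcf1, Abcf2 and Abcf3, had medians of -0.02 (low selenium) and -0.06 (adequate selenium). Abce1 averaged between 82.6 and 88.3 CPM and Abcf2 between 30.0 and 34.6 CPM over the 4 groups.

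In the remaining members of subfamilies C and G, Abcc9, a regulatory subunit of potassium channels, averaged between 50.1 and 53.7 CPM over the groups, and Abcg1, which exports cholesterol to lipoproteins, between 11.3 and 14.1 CPM. Abcc10, a drug exporter, had 0.68 ± 0.522 on low and -0.38 ± 0.523 on adequate selenium. Abcg3 was at 7.74, 3.57 and 4.99 CPM in WT LS and at 2.89, 3.75 and 3.84 CPM in KO LS, and it was the member with the lowest interaction (-1.06 ± 0.461, unadjusted p = 0.0379, adjusted p = 0.65, edgeR). S1 was its highest library, and without S1 the interaction was -0.76.

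**Figure D4:**
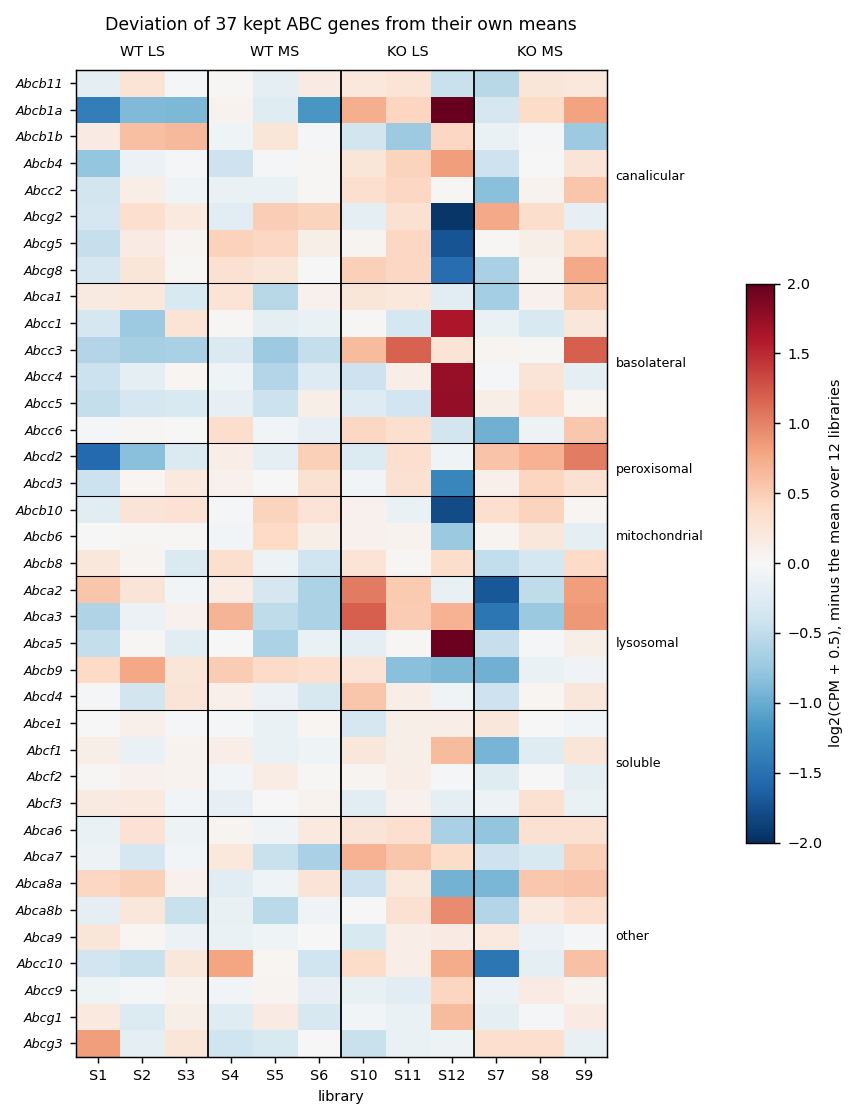
Deviation of 37 of the 39 kept members (rows, grouped by place in the cell) in each library (columns, grouped) from its mean over the 12 libraries, in log2(CPM + 0.5). S12 holds the most intense cells in both directions, with Abcb1a, Abca5, Abcc4 and Abcc5 high and Abcg2, Abcg5, Abcg8 and Abcb10 low, and S7 holds low values of Abca2, Abca3 and Abcc10.

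The libraries that stood apart showed in the members too. S12 was above all other libraries for 10 of the 39 members and below for 8 (25.6% and 20.5%), beside 26.1% and 25% of all tested genes. S7 was below all others for 15 members (38.5%, beside 23.6% of all genes), and S9 was above for 8 (20.5%, beside 4.93%). Within KO MS, members with a high GC content of the transcript tended to be higher in S9. The ratio of S9 to the mean of S7 and S8 was 3.85 for Abca3, 3.65 for Abca2, 2.84 for Abcc10 and 2.22 for Abcc3, all with a GC content of 54.2% or more. It was 0.78 for Abcb10 and 0.79 for Abcb6, at 53.7% and 53.8%.

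Over the 39 members, the rank correlation of that ratio was 0.52 with GC content and 0.18 with transcript length. Over 11862 genes with a known transcript it was 0.32 with GC content and 0.47 with length. The genes of a library share its depth and preparation, so these values describe the libraries. With each library corrected for transcript length and GC content, the fold changes of Abcc3 were 1.08 on low selenium, 1.09 on adequate selenium and 1.09 averaged over the diets. The Rn45s shares of S7 and S8, given above, moved with this pattern, and their part in it was not tested.

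**Figure D5:**
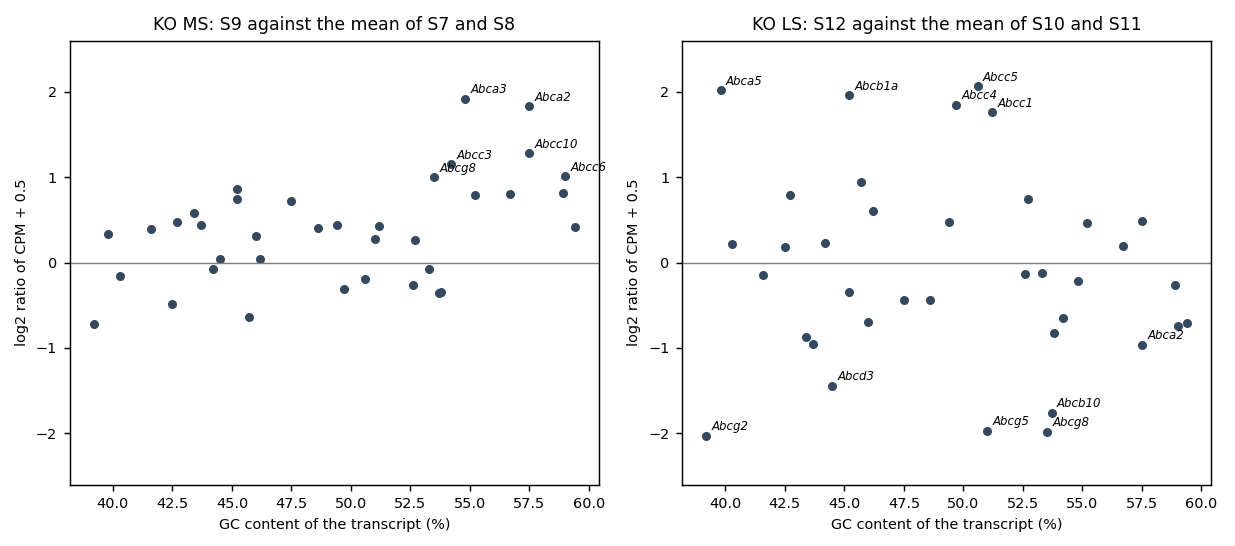
Log2 ratio of CPM + 0.5 in S9 to the mean of S7 and S8 (left) and in S12 to the mean of S10 and S11 (right) for 37 of the 39 members, against the GC content of the longest transcript. The left panel rises with GC content (rank correlation 0.52 over all 39) and the right panel does not follow it (-0.14).

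Genes that control or work beside the ABC members were described as lists. Of 19 transcriptional regulators, 1 was higher and 1 lower in KO LS than in WT LS at an unadjusted p under 0.05 in edgeR, beside 5.78% and 5.47% of all genes. Pparg, the receptor of fat storage, was at 1.37, 1.96 and 2.91 CPM in WT LS and at 8.14, 8.37 and 20.5 CPM in KO LS (2.54 ± 0.558, adjusted p = 0.342, edgeR), and those groups did not overlap. Esrra, the estrogen-related receptor alpha, gave -0.59 ± 0.251. On adequate selenium Ahr, the receptor of aromatic pollutants, was the one regulator past that level (0.65 ± 0.245). The xenobiotic receptors Nr1i2 and Nr1i3, which are known to control Abcb1a and Abcc3, gave 0.15 ± 0.254 and 0.03 ± 0.583 on low selenium. Nr1i3 was at 44.3, 72 and 7.51 CPM in S10, S11 and S12. Nfe2l2, the activator of antioxidant genes, gave 0.20 ± 0.189 on low and 0.22 ± 0.188 on adequate selenium. It was the 1 regulator with KO MS apart above WT MS, and 0 were apart below, beside 2.23% and 2.49% of all genes. Its S8 at 63.9 CPM nearly touched S4 at 63.8 CPM. DESeq2 called 1 regulator on low selenium (0.391% of all genes), 0 on adequate selenium (0.025%) and 1 for the average (0.225%).

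Of 14 tested uptake carriers and partners of the canalicular pumps, 2 were higher in KO LS and 0 lower at an unadjusted p under 0.05 in edgeR, beside the same 5.78% and 5.47%. The organic anion carrier Slco1a4 was at 18.4, 21.7 and 12.6 CPM in WT LS and at 31.2, 34.6 and 79.7 CPM in KO LS (1.46 ± 0.372, adjusted p = 0.428, edgeR). Ezr, which anchors apical membranes to actin, gave 1.37 ± 0.498, with its highest level in S12 at 10.7 CPM. The main bile acid carrier Slc10a1 was at 819, 934 and 134 CPM in S10, S11 and S12, and Slco1a1 at 598, 806 and 2.73 CPM, so that S12 was far below both other KO LS libraries for these hepatocyte carriers. Slco1a4 was at 41.5, 21.8 and 28.5 CPM in WT MS and at 46, 46.6 and 62.2 CPM in KO MS. These groups did not overlap (0.75 ± 0.363, unadjusted p = 0.0577, edgeR), as in 2.23% of all genes. Averaged over the diets Slco1a4 gave 1.11 ± 0.26 (unadjusted p = 0.000877, adjusted p = 0.461, edgeR). For the average DESeq2 called 1 gene of this list (0.225% of all genes), and 0 on either diet alone (0.391% and 0.025%).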

How the data were processed

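Poly(A) RNA of male mouse liver was sequenced with a kit that keeps strand, and the submitters' processing notes name FastQC, cutadapt, STAR, Partek and mm10. The sources used here give no tool versions, annotation or strand setting. As deposited, the table holds each gene's estimated count, made by the authors in Partek from aligned reads and left without scaling, with 93.1% of values within 0.01 of a whole number. A deposited table of the authors' own comparisons was not used. 0 value columns were left without a group.

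Counts were rounded, genes were filtered by filterByExpr with a minimum count of 10 (12009 genes, all 39 kept members among them), and libraries were scaled by TMM. CPM are counts per 1000000 scaled counts. A quasi-likelihood model with 1 coefficient per group was fitted in edgeR 4.0.16 (R 4.3.3) to all 12 libraries, and p-values were adjusted by Benjamini-Hochberg over all 12009 genes with a threshold of 0.05. The SE of a log2 fold change is its size divided by the square root of its F statistic. The genotypes were compared on each diet and over both, the diets in each genotype, and the interaction was tested. Alternatives were DESeq2 1.42.0, limma-voom 3.58.1 with sample quality weights, RLE factors, other filters on low counts, each library left out in turn, S7 and S8 left out, and a correction of each library for transcript length and GC content, for which 98.8% of tested genes had values. The tests were first checked on simulated counts. Transcript lengths and coding sequences came from GENCODE vM21 and promoter windows from RefSeq.

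The members and lists were chosen with earlier results of these data known. The study itself had picked ABC transporters as a pathway from these libraries. The counts of members are therefore not independent evidence of a direction. The study also measured Abcc3 and Abcb1a by qPCR in male livers. There, for both genes, the Scly KO mean was below the WT mean on low selenium and above it on adequate selenium. On low selenium this is the reverse of the direction in these libraries, although the low selenium qPCR means of Abcc3 lay close together. The study listed Abcc3 among the genes raised in Scly KO, and its qPCR showed a genotype by diet interaction for both genes. Those interactions had the opposite sign to the values here, 2.09 for Abcb1a and 0.36 for Abcc3. The rule named all canalicular, basolateral and peroxisomal members, with the 2 highest members of each subfamily, every member with an unadjusted p under 0.05 in any comparison or called by DESeq2, and up to 4 genes of the regulator and carrier lists for each genotype comparison. Of the 39 kept members, 2 enter every count but are not reported here singly. Any other gene or library in the text was picked with its values in view.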

Additional observations from a re-analysis of the deposited data

How the results depend on the processing

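No paired analysis was possible because the count columns carry the group and a library number but not the replicate number of the labels. All 39 members had an adjusted p over 0.05 in the 6 comparisons in edgeR, and this count of 0 also held with RLE factors and both other filters. Members with an adjusted p under 0.05 are given with the share of all genes called in that setting. They were 2 with DESeq2 (0.391%) and 2 with limma-voom (0.749%) between the genotypes on low selenium, 1 with limma-voom (7.54%) on adequate selenium, and 2 with DESeq2 (0.225%) and 2 with limma-voom (0.566%) for the average. For diet in Scly KO limma-voom called 14 members (49.9% of all genes), and for the interaction 4 (17.3%). DESeq2 gave no adjusted p for 20 of the 39 members for diet in Scly KO. For the average, Abcc3 was the 1 member called after removal of a length and GC trend without S12, and the 1 called without S7, S8 and S12 (alternatives added after seeing the data, with log2 fold changes of 1.22 and 1.62).

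Members with an unadjusted p under 0.05 on adequate selenium numbered 1 in edgeR (0.924% of all genes), 2 with DESeq2 (1.08%), 10 with limma-voom (28.2%), 2 without S7 and S8 (5.24%), 2 with the trend removed without S12 (2.71%), and 7 without S7, S8 and S12 (10.6%). For the average, 6 (3.74%) became 10 without S7 and S8 (19.3%) and 13 without S7, S8 and S12 (23.1%). For diet in WT, 1 (2.29%) became 2 with limma-voom (11.6%) and 2 with the trend removed, with S12 (3.33%) or without it (5.49%). For diet in Scly KO, 3 (21.9%) became 17 with limma-voom (56.3%) and 1 without S7, S8 and S12 (1.19%). For the interaction, 2 (6.73%) became 9 with limma-voom (35.5%) and 1 in each of the settings without S7 and S8 (1.04%), with the trend removed (6.23%), with the trend removed without S12 (6.51%), and without S7, S8 and S12 (2.27%).

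Moves of the median log2 fold change were judged against 0.16, the pooled SD within groups of the libraries' median member log2 CPM. That value is not the spread of a fold change or of an interaction. The median of the members moved by more than this in these settings. On low selenium it was -0.06 with the trend removed. Without S7 and S8 it was 0.28 on adequate selenium and 0.28 for the average, and without S7, S8 and S12 it was 0.29 on adequate selenium. For diet in Scly KO it was 0.01 with limma-voom, -0.07 without S7 and S8, -0.09 with the trend removed, -0.06 with the trend removed without S12 and -0.12 without S7, S8 and S12. For the interaction it was -0.05 with limma-voom, -0.08 without S7 and S8 and -0.12 without S7, S8 and S12.

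With each library left out in turn, members with an unadjusted p under 0.05 ranged from 2 (without S1, 4.36% of all genes) to 11 (without S10, 10.6%) on low selenium, 1 to 3 (without S9, 16.3%) on adequate selenium, 1 to 2 for diet in WT, 0 (without S12, 11%) to 11 (without S9, 44.7%) for diet in Scly KO and 0 to 7 (without S9, 29.3%) for the interaction. Members with an adjusted p under 0.05 for diet in Scly KO ranged from 0 to 5 (without S9, where 32.5% of all genes were called), and the median there from 0.02 to 0.32. The median of the interaction ranged from -0.05 to 0.34.

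Single genes reversed only in settings that left out S12 together with another change: Abca5 for diet in Scly KO (-0.07 with the trend removed without S12, -0.19 without S7, S8 and S12), Abcb1a there (-0.24 without S7, S8 and S12) and Abcc5 on low selenium (-0.19 with the trend removed without S12). Without S12 alone these values were 0.03, 0.23 and 0.02, and the cause was not tested. No named value passed the adjusted threshold in edgeR, so none could lose it. On low selenium, of 21 settings, the unadjusted p was under 0.05 in 21 for Abcc3 and Abcb1a, 20 for Abcb4, 18 for Abcd2, 15 for Abca5, 14 for Abca7, and 12 for Abcb9 and Abcc5. Settings that left out only adequate-diet libraries are among the 21. They bear on the low selenium comparison only through the shared filter, scaling and spread. Without S7 and S8, KO MS has S9 alone, whose spread is taken from the other groups. Members with few counts, such as Abcb1b and Abcb9, limit what a fold change can show.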
